A study of Mus musculus with 34 samples.

Results

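Monomethylation of histone H3 at lysine 4 (H3K4me1) was mapped by chromatin immunoprecipitation and sequencing (ChIP-seq) in limb and in forebrain of mouse embryos at embryonic day 11.5, and the regions listed for each tissue were compared here away from gene starts. The members are the rows of the limb and forebrain H3K4me1 lists that did not overlap, by even 1 bp, a row of trimethylated lysine 4 (H3K4me3) of either tissue. They numbered 59454 of the 354733 rows in the 30 lists read: 40501 of the 58181 limb rows and 18953 of the 34848 forebrain rows. Each was classed as limb only, forebrain only or in both, by an overlap of 1 bp with the complete H3K4me1 list of the other tissue.

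Both H3K4me1 samples came from CD1 embryos of pooled sex at day 11.5, with tissue from about 150 embryos per sample; the labels name no transgene or treatment. The protocol text attached to both samples names heart and hindbrain, whereas their titles and tissue fields say limb and forebrain; the tissue fields were followed. The FLAG lists set beside them below came from 129/C57BL/6 material labelled SMARCA4/FLAG knock-in, in which a FLAG tag marks the protein to be pulled down, with about 150 or 300 embryos per tissue, so strain and tag differ from the histone samples. The EP300, NCOA2 and SMARCC2 samples have the same genotype label, though their titles name other targets, and the hindbrain SMARCA4 sample has forebrain in its tissue field; titles were followed for both. There was 1 library per tissue and mark, so no difference between tissues has a replicate check and no p-value is given. Intervals are exact 95% binomial (Clopper-Pearson) intervals for shares and order-statistic intervals for medians. Both cover counting error only, and read depth is not given in the lists. In whole tissue, a mark carried by fewer cells and a weaker mark in each cell cannot be told apart.

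H3K4me1 is laid down mainly by the methyltransferases KMT2C and KMT2D at enhancers, both active and primed ones, and on the flanks of active gene starts. H3K4me3 marks the starts themselves, so a row of H3K4me1 with no H3K4me3 lies typically at an enhancer or inside a gene. At this stage the limb bud is patterned mesenchyme under an epithelium, with cartilage condensing and muscle precursors moving in, and the forebrain is a neuroepithelium of dividing progenitors with the first neurons.

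The tissue labels of the H3K4me3 lists were checked on gene points. These are single gene positions that 16 lists of the series give through their summits and distances. Of 23 placed limb patterning factors, 9 had their point inside an H3K4me3 row of limb but not of forebrain, among them Tbx5, Tbx4, Pitx1 and Hand2, and 0 had the opposite. Of 34 placed forebrain patterning factors, 0 had their point in H3K4me3 of limb alone and 15 in H3K4me3 of forebrain alone, among them Emx1, Otx2, Nkx2-1 and Gsx2. A further 13 limb and 16 forebrain factors had their point in H3K4me3 of both tissues. Both H3K4me3 labels matched the genes found in 1 tissue alone. The labels of the H3K4me1 lists were not checked in this way.

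A few gene points lay inside tissue-only H3K4me1 rows with no H3K4me3 on them. Of 16001 genes with a point, 464 (2.90%) had it in a limb-only row and 85 (0.531%) in a forebrain-only row, against 321 (2.01%) in rows found in both and 11487 (71.8%) in a row of H3K4me3. The starts in the 2 best-ranked such rows of each tissue whose gene could be matched to RefSeq are shown as the starts where this mark stands on a start without the trimethyl mark. They are 300-base windows around the RefSeq start on GRCm38.p6, read 5′ to 3′ on the gene's strand, and capitals mark each CG dinucleotide, which reads the same on both strands. For each of these 4 genes, the offset between the file's mm9 point and the RefSeq start matched, within 50 bp, that of 10 to 15 of its 20 nearest neighbours.
Ankrd2, limb only: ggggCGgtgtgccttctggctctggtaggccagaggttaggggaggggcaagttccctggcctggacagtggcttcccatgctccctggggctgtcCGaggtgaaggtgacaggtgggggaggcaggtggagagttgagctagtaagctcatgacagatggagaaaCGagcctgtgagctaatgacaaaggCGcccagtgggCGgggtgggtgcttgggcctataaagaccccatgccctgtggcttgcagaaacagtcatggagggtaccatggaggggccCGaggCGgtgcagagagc
Rph3al, limb only: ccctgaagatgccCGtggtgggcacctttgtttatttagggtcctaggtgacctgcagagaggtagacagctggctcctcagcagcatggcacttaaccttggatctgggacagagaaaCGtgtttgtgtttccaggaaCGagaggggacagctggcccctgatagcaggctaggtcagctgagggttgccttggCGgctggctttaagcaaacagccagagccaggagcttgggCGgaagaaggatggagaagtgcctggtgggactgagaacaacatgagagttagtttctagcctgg
Gm833, forebrain only: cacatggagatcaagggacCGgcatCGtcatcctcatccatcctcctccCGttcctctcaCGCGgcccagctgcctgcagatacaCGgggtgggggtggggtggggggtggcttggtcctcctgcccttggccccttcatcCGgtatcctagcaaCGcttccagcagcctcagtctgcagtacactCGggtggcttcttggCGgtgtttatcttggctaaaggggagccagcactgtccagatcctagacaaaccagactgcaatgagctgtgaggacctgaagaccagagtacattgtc
Avpr1a, forebrain only: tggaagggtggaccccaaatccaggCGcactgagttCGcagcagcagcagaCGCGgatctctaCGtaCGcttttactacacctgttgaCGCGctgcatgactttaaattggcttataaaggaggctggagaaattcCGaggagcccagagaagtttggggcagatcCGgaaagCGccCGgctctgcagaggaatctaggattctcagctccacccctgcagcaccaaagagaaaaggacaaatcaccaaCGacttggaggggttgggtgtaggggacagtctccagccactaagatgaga

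Ankrd2 encodes an ankyrin-repeat protein of striated muscle. Its window (chromosome 19, 42035777 to 42036076, plus strand) held 7 CG, and 52.1% of all 32851 RefSeq promoter windows held as many or more. The limb-only row over its point spanned chr19:42107880-42110746 in mm9, 2867 bp at rank 1939 of the limb list. Rph3al encodes a Rab effector of regulated secretion. Its window (chromosome 11, 75925842 to 75926141, minus strand) held 5 CG, matched or passed by 62.0% of windows, under a limb-only row at chr11:75738600-75741239 of rank 2185. Gm833 is a predicted gene, whose window (chromosome 4, 152697290 to 152697589, plus strand) held 10 CG, matched or passed by 43.5%. Its forebrain-only row was chr4:152070172-152073346, rank 5226 of the forebrain list. Avpr1a, a vasopressin receptor with known roles in brain and behaviour, had 13 CG in its window (chromosome 10, 122448249 to 122448548, plus strand), matched or passed by 37.9%, under a forebrain-only row at chr10:121884889-121886896 of rank 5281. All 4 counts lay between the lower and upper quartiles of all windows, which were 3 and 20 CG. A comparison of CG content between the classes was void, because 54.1% of the genes with a point in limb-only rows and 55.3% of those in forebrain-only rows could be matched to a window.

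Most limb rows away from H3K4me3 were found in limb only, and most such forebrain rows had a partner in limb. Of the 40501 limb rows, 29990 were limb only, a share of 74.0% (73.6 to 74.5), and 10511 were in both. Of the 18953 forebrain rows, 8008 were forebrain only, a share of 42.3% (41.5 to 43.0), and 10945 were in both. The limb list is longer, and the shares depended on list length. With the limb rows cut by rank to the 18953 that the forebrain has, the limb-only share was 63.3% (62.6 to 64.0) and the forebrain-only share 60.2% (59.5 to 60.9). A forebrain row whose limb partner fell below the cut was then counted as forebrain only, and that class grew from 8008 to 11405 rows. The difference of the uncut lists, 74.0 against 42.3%, was thus reduced to 63.3 against 60.2%. H3K4me3 was shared much more widely, with 21.4% of limb H3K4me3 rows and 6.85% of forebrain H3K4me3 rows found in 1 tissue only.

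Few in-both rows met the 1 bp rule by a narrow margin. In-both rows with under 100 bp of overlap numbered 61 in the limb list and 61 in the forebrain list, and the median in-both row was covered over 80.8% of its length in limb and 94.2% in forebrain. A row of the other tissue lay within 1000 bp of 901 limb-only and 878 forebrain-only rows, and within 5000 bp of 23.6% of limb-only and 40.2% of forebrain-only rows. Of the in-both rows, 197 in limb and 535 in forebrain owed their class to a partner row that itself lay over H3K4me3.

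Tissue-only rows were concentrated at the low-ranked end of each list. Each list was cut into 10 groups by rank. In the best-ranked group of the limb list 39.0% (36.6 to 41.5) of the rows away from H3K4me3 were limb only, and in the last group 87.4% (86.4 to 88.3). In forebrain the same shares were 16.4% (14.3 to 18.7) and 52.0% (50.1 to 54.0), with the last 3 groups between 51.4 and 52.0%. In each of the 10 groups the limb-only share was above the forebrain-only share, with intervals that did not overlap. Rows of every group were compared with the complete list of the other tissue, and the limb list is the longer. This order is therefore not read as a tissue difference at equal rank, and the part of list length in it was not tested by group. The share also fell with width: from the narrowest to the widest of 4 groups of rows (edges at 932, 1269 and 1914 bp) it ran 86.2, 79.7, 72.4 and 56.4% in limb, and 49.8, 48.7, 43.3 and 28.5% in forebrain. What the rank was made from is not stated; across all rows of a list it followed width, with a Spearman rho of -0.73 over the 58181 limb rows and -0.62 over the 34848 forebrain rows, which is a description of rows of 1 library.

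**Figure D1:**
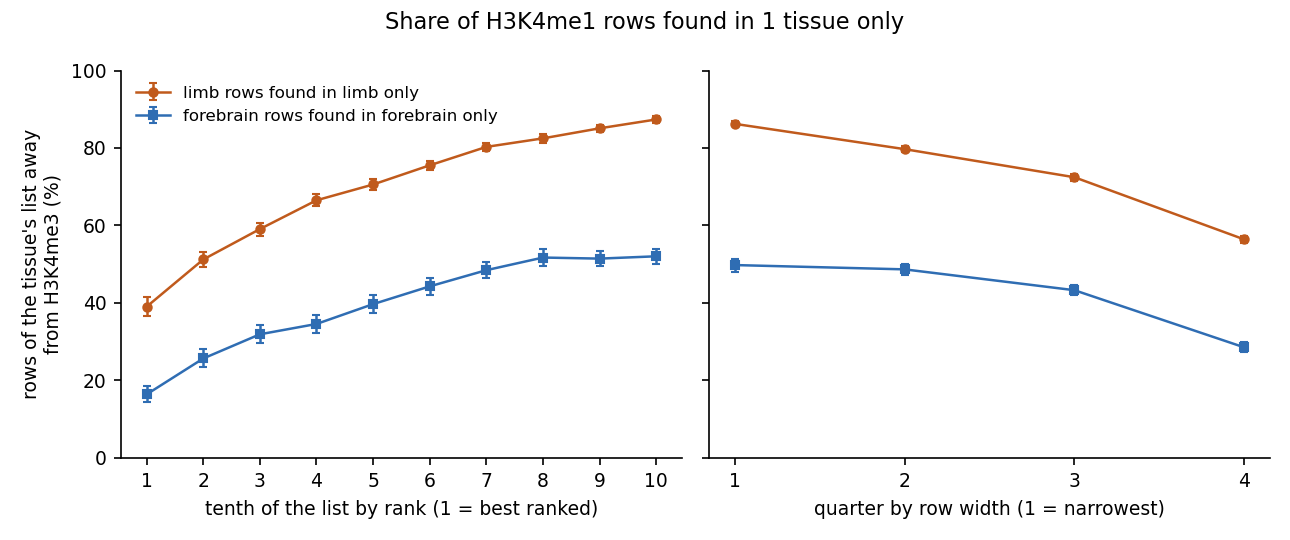
Share of the rows away from H3K4me3 that were found in limb only (circles) or forebrain only (squares), in 10 groups of each list by rank (left) and 4 groups by row width (right); bars are exact 95% binomial intervals. The limb share runs from 39.0% in the best-ranked group to 87.4% in the last, and the forebrain share from 16.4 to 52.0%.

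Tissue-only rows were narrower and ranked lower than rows in both. The median width was 1130 bp (1121 to 1138) for limb-only rows, 1228 bp (1213 to 1244) for forebrain-only rows, 1670 bp for limb rows in both and 1451 bp for forebrain rows in both. The interquartile range of limb-only rows ran between 856 and 1677 bp, and that of forebrain-only rows between 962 and 1642 bp, so the 2 classes overlapped widely. The order of the 2 tissue-only medians turned round in lists of equal length, at 1638 bp (1619 to 1659) for limb only and 1259 bp (1246 to 1273) for forebrain only. That cut kept the best-ranked limb rows and all forebrain rows, and rank followed width, so this setting cannot tell which class is the wider. The widest limb-only row measured 13337 bp and the widest forebrain-only row 13611 bp. In all, limb-only rows covered 43.0 Mb and forebrain-only rows 11.5 Mb.

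The median limb-only row stood at 65.4% of the way down its list and the median forebrain-only row at 68.0%, against 43.1 and 52.3% for limb and forebrain rows in both. Only 9.48% of limb-only rows and 9.69% of forebrain-only rows were in the top 25% of their list, against 27.4% of the limb and 23.2% of the forebrain rows in both. Both tissue-only classes thus sat lower in their lists than the rows in both, and the forebrain-only median lay slightly lower than the limb-only one, with intervals that did not overlap. Forebrain rows in both also stood lower than limb rows in both, so this gap was not particular to the tissue-only rows. Positions were taken over whole lists, of which rows over H3K4me3 made up 45.6% in forebrain and 30.4% in limb.

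Forebrain-only rows lay somewhat farther from gene points than the other classes. The median distance from row midpoint to nearest point was 36302.5 bp (35544 to 36995) for limb-only rows and 41524.5 bp (40152 to 42824) for forebrain-only rows, and 35755.5 and 34716.5 bp for limb and forebrain rows in both. More than 100 kb from any point lay 20.9% (20.5 to 21.4) of limb-only and 24.7% (23.8 to 25.7) of forebrain-only rows. Within 1000 bp lay 2.03% of limb-only and 1.77% of forebrain-only rows, with overlapping intervals, against 3.10% and 2.91% of the limb and forebrain rows in both. In lists of equal length the tissue-only medians kept this order, at 35011 bp for limb only and 40747.5 bp for forebrain only. Points were placed for 18934 of 23432 transcript names, so a row near an unplaced gene counts as distant.

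**Figure D2:**
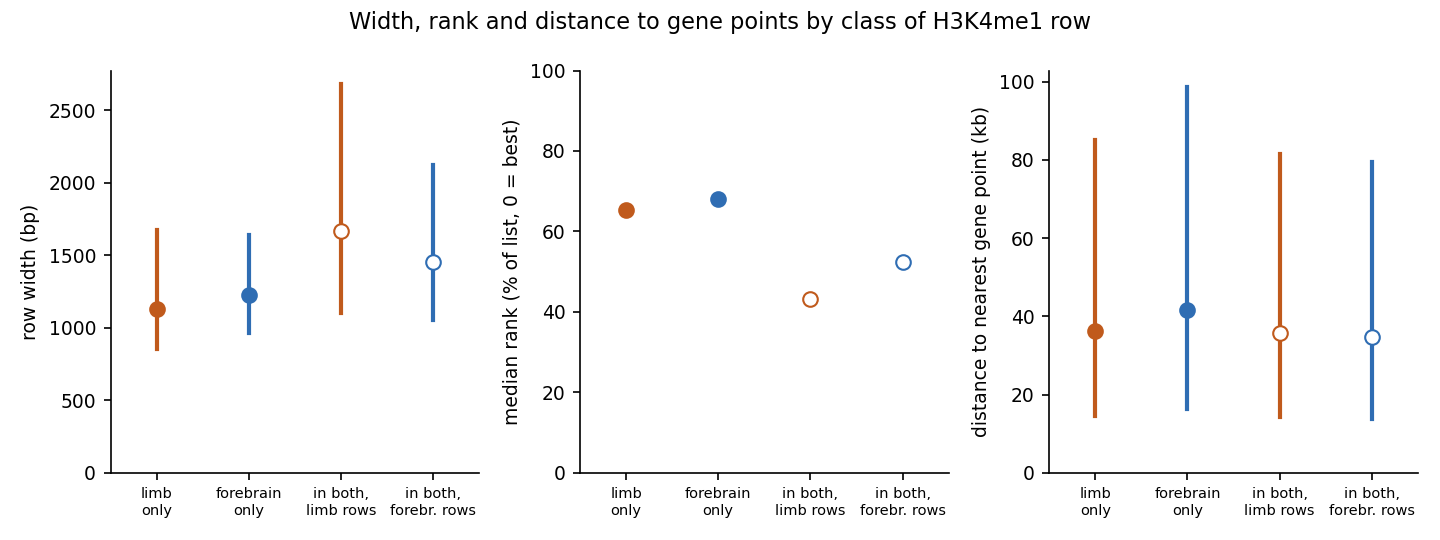
Median (point) and interquartile range (line) of row width in bp, median rank as a percentage of the tissue's list (0 is the best), and median and interquartile range of the distance to the nearest gene point in kb, for limb-only, forebrain-only and in-both rows (open points are rows in both). Medians of width are 1130, 1228, 1670 and 1451 bp from left to right, and the forebrain-only rows have the longest median distance.

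The best-ranked limb-only row was chr14:26542697-26547429 (mm9), 4733 bp at rank 200 of the limb list and 5784 bp from the point of BC034735. It also lay over limb H3K27ac, heart SMARCA4 and face SMARCA4. The next limb-only rows were chr14:26024959-26030621 at rank 244, nearest to AK016284, and chr2:172704421-172716543 at rank 268, a row of 12123 bp at 55313 bp from the point of Bmp7, a bone morphogenetic protein of the limb bud and skeleton. The fourth, chr6:127956056-127966719, nearest to AK214641, had rank 284, and the fifth, chr6:84140186-84150132 at 45291 bp from Dysf, a membrane repair gene of muscle, had rank 356. Of these 5 limb-only rows, 4 lay over limb H3K27ac, the exception being the row near Bmp7. The row near Dysf also overlapped a control list, that of hindbrain NCOA2.

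The best-ranked forebrain-only row was chr12:109632677-109636385, 3709 bp at rank 95 of the forebrain list, 14334 bp from the point of Eml1, a microtubule-binding protein needed by cortical progenitors. It overlapped no row of the other lists read. Second came chr5:112272782-112275000 at rank 110, nearest to AK087393 and over forebrain SMARCA4 and limb H3K27me3. The others were chr1:134975695-134979113 at rank 179, 34815 bp from Pik3c2b and over forebrain and neural tube SMARCA4, chr5:112088200-112091682 at rank 181 near C130026L21Rik, and chr1:90998805-91001431 at rank 184, 33081 bp from Sh3bp4. The rows near Pik3c2b and Sh3bp4 also overlapped limb H3K27ac, and the row near Sh3bp4 a control list, although no limb H3K4me1 row was listed there.

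Lists that took no part in the classing separated the tissue-only rows. H3K27ac, an acetylation of active enhancers and starts, was mapped in limb alone: its rows lay over 6.48% (6.20 to 6.76) of limb-only and 2.16% (1.85 to 2.50) of forebrain-only rows, against 14.3% of limb rows in both. The gap grew with row width, at 1.74% of limb-only against 1.56% of forebrain-only rows in the narrowest of the 4 width groups and 18.6 against 3.78% in the widest. SMARCA4, the ATPase of the SWI/SNF chromatin remodelling complex, was found in forebrain over 0.614% (0.528 to 0.709) of limb-only and 1.92% (1.63 to 2.25) of forebrain-only rows, and in each of the 4 width groups the forebrain-only share was the higher. Midbrain SMARCA4 lay over 0.187% of limb-only and 1.01% of forebrain-only rows, hindbrain SMARCA4 over 0.594 and 1.77%, and neural tube SMARCA4 over 1.99 and 4.52%. Thus 4 SMARCA4 lists from the nervous system overlapped a larger share of the forebrain-only than of the limb-only rows.

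The limb SMARCA4 list did not show the mirror image. It lay over 0.410% (0.341 to 0.489) of limb-only and 0.587% (0.432 to 0.780) of forebrain-only rows, with overlapping intervals, and in the widest group the order turned round, at 1.10% (0.849 to 1.41) and 0.593% (0.256 to 1.16). That list is small, with 5251 rows of which 522 lay away from H3K4me3. Face SMARCA4 covered 16.7% of limb-only and 9.38% of forebrain-only rows, and heart SMARCA4 5.54 and 4.60%. The other face lists did not follow: face SMARCC2 lay over 4.04% of limb-only and 4.02% of forebrain-only rows, and face EP300 over 0.213 and 0.362%. The control list of face EP300 was also higher over limb-only rows, at 8.05 against 4.97%, as was that of midbrain SMARCA4, at 3.63 against 1.87%. The part of this background in the face values was not tested. ES cell SMARCA4 lay over 1.66% of limb-only and 3.45% of forebrain-only rows. The 2 input lists of the limb histone samples touched at most 0.267% of limb-only and 0.250% of forebrain-only rows, and the forebrain input 0.0300 and 0.0250%.

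H3K27me3 is the Polycomb mark of silenced developmental genes. The forebrain list of this mark lay more often over forebrain-only rows, while the limb list differed less and not at every width. Limb H3K27me3 lay over 6.02% (5.75 to 6.29) of limb-only and 6.86% (6.31 to 7.43) of forebrain-only rows. In the narrowest width group these shares were 3.90% of limb-only and 6.13% of forebrain-only rows, but in the third group the order turned, at 7.26 and 6.60%, and in the widest they were 8.72 and 8.96%, with overlapping intervals in both. Forebrain H3K27me3 lay over 1.89% (1.74 to 2.05) of limb-only and 4.17% (3.74 to 4.63) of forebrain-only rows, and the forebrain-only share was the higher in each of the 4 width groups. The 2 lists differ in size, 45.8 Mb in limb and 19.1 Mb in forebrain, and no order between the marks' tissues is read from them. Of limb-only rows, 87.6% overlapped neither limb H3K27ac nor limb H3K27me3.

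**Figure D3:**
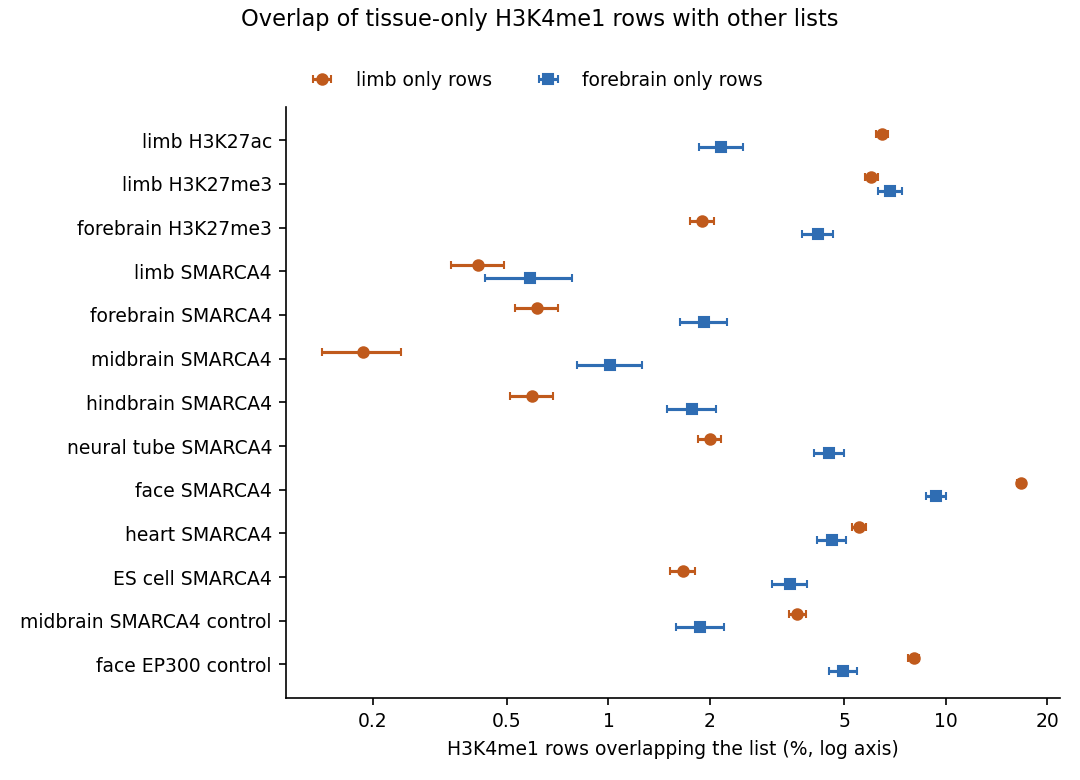
Percentage of limb-only (circles) and forebrain-only (squares) H3K4me1 rows that overlapped each other list by at least 1 bp, on a log axis with exact 95% binomial intervals. Limb H3K27ac and face and heart SMARCA4 lie higher over limb-only rows, the 4 nervous system SMARCA4 lists over forebrain-only rows, and the 2 control lists over limb-only rows.

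A minority of limb-only rows came in long runs. Neighbouring rows of one class within 25 kb of each other, with no row of another class between them, were joined. Single rows made up 9764 of the 16237 limb-only runs and 5822 of the 6787 forebrain-only runs. Limb-only rows formed 934 runs of 5 rows or more, which held 21.1% of them, and forebrain-only rows formed 10, which held 0.662%. Denser lists give longer runs by number alone, so the 2 shares were not compared further. The longest limb-only run held 26 rows over 271097 bp, at chr11:32643573-32914669 around 1700008A04Rik. Others held 23 rows at chr15:93384280-93623188, over the planar polarity gene Prickle1, 21 rows at chr8:123267193-123456329, nearest to Irf8, a transcription factor of blood cells, and 19 rows at chr10:61364843-61552481 near the collagen gene Col13a1. The longest forebrain-only runs held 6 rows, at chr4:6826694-6910090 near Tox, at chr1:178851913-178901769 nearest to Sdccag8 and at chr2:29294021-29329954 nearest to Med27. Across the 20 chromosomes limb-only rows made up between 76.0% (chromosome 4) and 81.8% (X) of the tissue-only rows.

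The genes with the most tissue-only rows were found by counting rows with their midpoint within 100 kb of the gene's point. A balance was formed as the log2 of (limb-only rows + 1) over (forebrain-only rows + 1), relative to 3.745, the ratio of the class totals. Genes with at least 3 tissue-only rows were considered, and a 4-fold balance in either direction was called limb-rich or forebrain-rich. Of 10128 genes considered, 75 were limb-rich, 0.741% of them, and 756 were forebrain-rich, 7.46%. The asymmetry is built into the measure: with 3.745 times as many limb-only rows, limb-rich genes needed at least 14 limb-only rows and none had a forebrain-only row, while a forebrain-rich gene could have as few as 2 forebrain-only rows. In lists of equal length 597 genes (8.75%) were limb-rich and 736 (10.8%) forebrain-rich among 6824 considered, with a median balance of 0.34. Of the 75 limb-rich genes 63 (84.0%) were called there too, and they made up 10.6% of the 597. Of the 756 forebrain-rich genes 408 (54.0%) were called there too, and they made up 55.4% of the 736. Genes that lie near each other share rows, so these counts are not of independent loci. The median gene considered had 4 limb-only rows and 1 forebrain-only row.

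Among limb-rich genes at least 100 kb apart, the highest counts were 21 limb-only and 0 forebrain-only rows around A630055G03Rik, whose called neighbours include Socs1, an inhibitor of cytokine signalling with 20 and 0. AA407270 followed with 20 limb-only and 0 forebrain-only rows, but was not called in lists of equal length (1.51). Around 1700008A04Rik, Dnm3os and Itga9 there were 19 limb-only and 0 forebrain-only rows each, and around AK085632 and Ifltd1 18 and 0 each. AK085632 neighbours Wnt11, a Wnt ligand of developing mesenchyme. The genes 4631422O05Rik, 4930474M22Rik, AK144571, BC100494 and Ets2 had 17 limb-only and 0 forebrain-only rows each. 4930474M22Rik shares its rows with smoc2, which encodes a secreted matrix protein, and Ets2 encodes an ETS transcription factor that responds to growth factor signals. Chosen after their values were seen, Tbx3, a T-box factor that patterns the limb, and Vegfa, a growth factor for blood vessels, also had 17 limb-only and 0 forebrain-only rows each. Against a floor of 3 rows for the empty count, A630055G03Rik had at least 7-fold more limb-only than forebrain-only rows, and at least 1.87-fold more relative to the class totals.

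Dnm3os is a noncoding RNA of mesenchyme, needed for growth of the mouse skeleton, and host of the microRNAs miR-199a and miR-214. Its 19 limb-only rows spread over both sides of its point (chromosome 1, 164147753, mm9), from -94.36 kb to 95.81 kb along the chromosome. Their widths ran from 627 bp to 3185 bp with a median of 1075 bp, and the best of them, chr1:164242094-164245035, had rank 11979 of the limb list. The widest row of the territory, chr1:164112932-164119127 of 6196 bp and rank 2353, was shared with forebrain, where its partner measured 1015 bp at rank 28932. With lists of equal length, 8 limb-only and 0 forebrain-only rows remained around Dnm3os. The mature microRNAs that RefSeq places inside Dnm3os on GRCm38.p6 (chromosome 1, 162217623 to 162225550, plus strand) are shown because they are the products of this territory; capitals mark the seed, bases 2 to 8. No 2 of the 4 share a seed.
mmu-miR-199a-5p: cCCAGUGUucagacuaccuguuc
mmu-miR-199a-3p: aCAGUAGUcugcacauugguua
mmu-miR-214-5p: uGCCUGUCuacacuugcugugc
mmu-miR-214-3p: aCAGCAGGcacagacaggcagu

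Itga9, the alpha-9 integrin subunit, a receptor for matrix proteins such as tenascin, had wider and better-ranked limb-only rows than Dnm3os. Their median width was 2061 bp, with a highest of 5367 bp, and the best, chr9:118584722-118588301, had rank 2660. One of them, chr9:118618875-118622037, covered the gene's point itself. The 17 limb-only rows around Ets2 had a median width of 1561 bp and a best rank of 10358, and the 21 around A630055G03Rik a median of 1608 bp and a best rank of 2267.

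Among forebrain-rich genes at least 100 kb apart, Igsf21, a synaptic adhesion protein, had 1 limb-only and 10 forebrain-only rows. Psmb7, a proteasome subunit, had 5 and 10. Around 1810009O10Rik there were 2 limb-only and 9 forebrain-only rows, with Nlk, a kinase that modulates Wnt and Notch signalling, among its called neighbours. AK006334, beside the neuronal membrane protein gene Sez6l, also had 2 and 9, and Zswim6, a zinc finger gene of striatal development, had 7 and 9. Counts of 8 forebrain-only rows stood around Epha4 with 0 limb-only rows, msi2, an RNA-binding protein of progenitors, with 2, BC024760 with 3 and AK045483 with 7. Camta1, a calmodulin-binding transcription factor of neurons, and Znrf4 had 0 limb-only and 7 forebrain-only rows each, and 1500001A10Rik had 1 and 7. Znrf4 lies near Ptprs, a receptor phosphatase of growing axons, which had 2 and 7. With lists of equal length Zswim6 (-1.53) and AK045483 (-1.95) were not called, and Zswim6 also lost its call with H3K4me3 rows extended by 2500 bp (-1.93).

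Epha4 encodes an ephrin receptor that guides axons. Its 8 forebrain-only rows lay between -96.11 and 30.85 kb from its point (chromosome 1, 77511663), with widths from 788 to 3808 bp, and the best, chr1:77528291-77529980, had rank 11963 of the forebrain list. The territory held 0 limb-only rows, 4 limb rows in both and 2 forebrain rows in both. Against a floor of 3 rows for limb, Epha4 had at least 2.67-fold more forebrain-only than limb-only rows, and at least 9.99-fold more relative to the class totals. Igsf21 kept its call in lists of equal length, with 0 limb-only and 13 forebrain-only rows and a balance of -3.88 against -4.36 in the uncut lists. Epha4 kept its call too, with 0 and 9, and a balance of -3.39 against -5.07. Both forebrain-only counts rose because in-both rows lost their limb partner to the cut: 3 such rows joined the 10 around Igsf21. The 1 limb-only row near Igsf21 also fell below the cut. The added rows have a partner in the uncut limb list, so the higher counts are no further support for the calls.

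**Figure D4:**
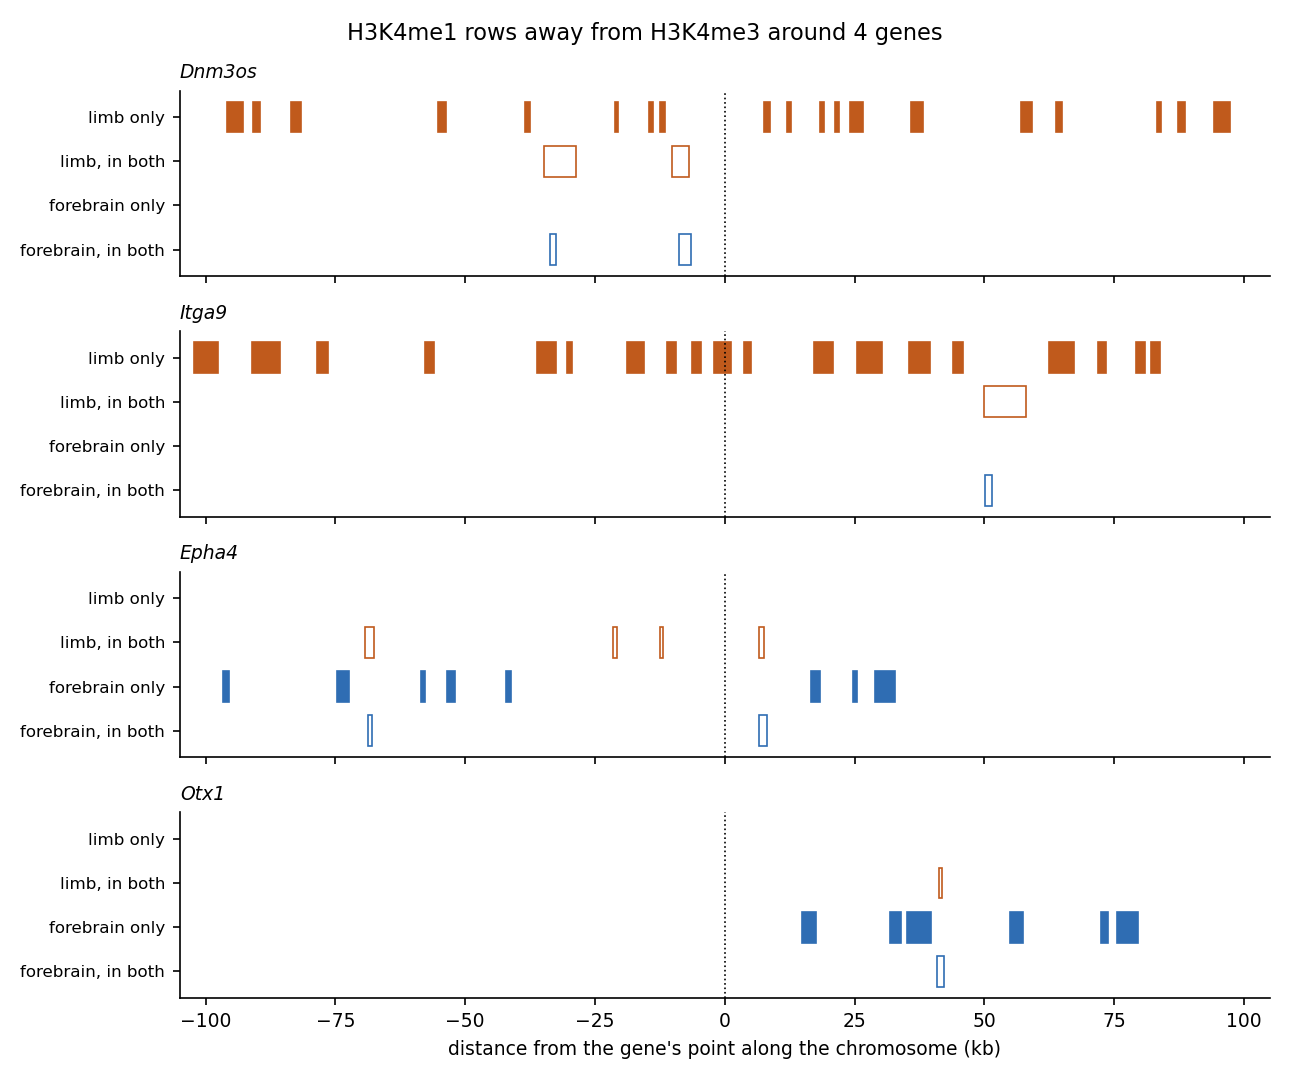
H3K4me1 rows away from H3K4me3 by distance along the chromosome, in kb, from the points of Dnm3os, Itga9, Epha4 and Otx1 (dotted line); filled boxes are limb-only or forebrain-only rows and open boxes rows in both, drawn to scale. Dnm3os and Itga9 have 19 limb-only rows each and no forebrain-only row, Epha4 has 8 forebrain-only rows and Otx1 6, and neither has a limb-only row.

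Genes of limb development had, as a list, a balance near that of all genes. Of 19 limb patterning factors considered, 0 were limb-rich and 0 forebrain-rich, against 0.741% and 7.46% of all genes. The median balance was 0.10 on the log2 scale, against -0.10 over all 10128 genes. Alx4, a homeobox factor of the anterior limb, had 16 limb-only and 2 forebrain-only rows, Sall4, a zinc finger factor, 13 and 3, and Pitx1, which sets hindlimb identity, 10 and 0. Meis1, a factor of the proximal limb also used in brain, had 7 and 4. Counted together, rows within 100 kb of any member were 144 limb only and 19 forebrain only, so 88.3% (82.4 to 92.8) were limb only, against 79.7% (79.3 to 80.2) of the tissue-only rows near any placed gene. The list was placed in part, with 23 of 30 genes having a point, and Meis2 and several posterior Hox genes were not placed. In lists of equal length Pitx1 (8 limb-only and 0 forebrain-only rows), Tbx4 (7 and 0), Prrx1 (4 and 0) and Osr2 (4 and 0) were limb-rich, 4 of 16 members considered, against 8.75% of all genes, and the median was 0.93 against 0.34 for all genes.

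Limb signalling genes were similar, with 19 considered, 0 limb-rich and 1 forebrain-rich, against 0.741% and 7.46% of all genes, a median of 0.27 and 129 limb-only against 21 forebrain-only rows, 86.0% (79.4 to 91.1) limb only. Dusp6, an inhibitor induced by FGF signals, had 11 limb-only and 0 forebrain-only rows, Hhip, which binds Hedgehog ligands, 11 and 1, and Tgfb2 10 and 1. The forebrain-rich member was Wnt7a, a dorsal limb Wnt ligand that is also made in brain, with 2 limb-only and 4 forebrain-only rows. Fgfr2 had 8 and 3, and Fgf4 6 and 2. In lists of equal length Wnt5a, with 6 limb-only and 0 forebrain-only rows, and Dusp6, with 5 and 0, were limb-rich. These were 2 of 13 considered, against 8.75% of all genes.

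Of 15 cartilage and connective tissue genes considered, Dnm3os and Twist2 were limb-rich, against 0.741% of all genes, and 1 was forebrain-rich, against 7.46%. The median was 0.68, and of the rows near them 10 were forebrain only and 91.3% (84.6 to 95.8) limb only. In lists of equal length 3 of 10 were limb-rich, against 8.75% of all genes, and limb-rich members were also found there in 6 other lists. Twist2, a bHLH repressor of mesenchyme, had 14 limb-only and 0 forebrain-only rows, just past the threshold, and was not called with H3K4me3 rows extended by 2500 bp (1.98). Bmpr1b, a BMP receptor of digit cartilage, had 11 and 0. The Sox factors of cartilage had balances below 0, though that of Sox9 turned to 0.25 in lists of equal length: Sox6 had 0 limb-only and 3 forebrain-only rows, with 6 limb rows in both, Sox5 had 5 and 3, and Sox9 had 6 and 2, and all 3 genes also act in neural cells. The 8 muscle precursor genes considered had no call and a median of 0.10. Lbx1 had 8 limb-only and 0 forebrain-only rows, and Myod1 6 and 4. In lists of equal length 0 of 5 muscle precursor genes were limb-rich and 0 forebrain-rich, against 8.75% and 10.8% of all genes. Their median turned to -0.34, against 0.34 for all genes, and Lbx1 had 0 limb-only and 0 forebrain-only rows.

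In the uncut lists, genes of forebrain development had a larger share of forebrain-only rows around them than placed genes in general. Of 23 forebrain patterning factors considered, 0 were limb-rich and 4 forebrain-rich, among them Otx1 and Gsx2, against 0.741% and 7.46% of all genes, and 4 had a balance above 0 and 19 below. The median was -0.90, and the rows near members were 91 limb only and 54 forebrain only, 62.8% (54.3 to 70.6) limb only against the 79.7% near any gene. The 1 added to each count lowers the balance of genes with few rows, where limb-only rows are the more numerous. Gsx1, with 3 limb-only rows and 1 forebrain-only row, thus scored -0.90. The part of this in the list medians was not tested, and the limb-only shares do not depend on it. Otx1, a homeobox factor of the anterior brain, had 0 limb-only and 6 forebrain-only rows, all on one side of its point between 16.26 and 77.53 kb, with a best rank of 9399 at chr11:21977154-21981208. Gsx2 had 1 limb-only and 4 forebrain-only rows, and Nkx2-1 1 and 2. Other members had more limb-only than forebrain-only rows: Zic5 had 10 limb-only and 4 forebrain-only rows, its neighbour Zic2 8 and 4, and Dmrt3 8 and 2. Pax6, a factor central to the tissue, had too few rows to be considered, with 0 limb-only and 2 forebrain-only rows. In lists of equal length 4 of 20 forebrain patterning factors were forebrain-rich, against 10.8% of all genes. Their median was -0.66 (-1.39 to 0.51), against 0.34 for all genes, with 6 balances above 0 and 14 below. With territories of 50 kb the median was -0.90 (-1.49 to 0.42), so both intervals spanned 0.

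Neural progenitor genes gave 0 limb-rich and 3 forebrain-rich of 11 considered, against 0.741% and 7.46% of all genes, with a median of -1.32, and 46 limb-only against 25 forebrain-only rows, 64.8% (52.5 to 75.8) limb only. Sox1, a marker of the neuroepithelium, had 2 limb-only and 6 forebrain-only rows, Sox2 1 and 2, and Dll1, a Notch ligand, 1 and 2. Hes1, a Notch target used in many tissues, had 12 limb-only and 1 forebrain-only row, and was limb-rich in lists of equal length, with 11 and 1. There 4 of 8 progenitor genes were forebrain-rich, against 10.8% of all genes, with a median of -1.44 against 0.34. Genes of differentiating neurons gave 0 limb-rich and 5 forebrain-rich of 19, against 0.741% and 7.46% of all genes, with a median of -1.49 and 81 limb-only against 42 forebrain-only rows, 65.9% (56.8 to 74.2) limb only. Neurog2, a proneural factor of the cortex, had 0 limb-only and 4 forebrain-only rows between 29.08 and 96.22 kb from its point, the best at rank 4866. Cntn2, an axonal adhesion protein, had 3 and 4, and was not called in lists of equal length (-1.39). Ebf2 and Ebf1, factors of neurons that are also expressed in mesenchyme, had 13 limb-only and 0 forebrain-only rows, and 10 and 2. With equal list length 3 of 16 neuronal genes were forebrain-rich, against 10.8% of all genes, with a median of -1.07.

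Lists of other cell types stood as follows, beside 0.741% of all genes limb-rich and 7.46% forebrain-rich in the uncut lists. Surface epithelium genes had 35 limb-only and 2 forebrain-only rows near them, with 0 calls of 7 in either direction; Grhl3 had 9 and 0. Heart muscle genes, from an organ not among these tissues, had 51 limb-only and 4 forebrain-only rows, 92.7% (82.4 to 98.0) limb only, with 0 calls of 7, although in lists of equal length 3 of 5 were limb-rich, against 8.75% of all genes, with a median of 2.25 against 0.34. Housekeeping genes had 37 limb-only and 3 forebrain-only rows, 92.5% (79.6 to 98.4), with Gapdh alone called, forebrain-rich at 1 and 2. The limb-only shares around limb patterning and cartilage genes lay within the intervals of these 2 lists. In lists of equal length the limb patterning median, 0.93, lay above the housekeeping median, -0.49, but below the heart muscle median, 2.25. The housekeeping and heart muscle medians there rest on 5 genes each. Endothelial genes had 79 limb-only and 10 forebrain-only rows, 88.8% (80.3 to 94.5), with 0 calls of 10; Fli1 had 17 and 1, and Erg 12 and 0. Hindbrain and spinal cord genes had 45 and 12, 78.9% (66.1 to 88.6), with Olig3, at 3 and 5, the 1 forebrain-rich gene of 11. With equal list length Olig3 was not called (-1.88), and the median of that list was 0.80 against -0.10 in the uncut lists. Erythroid genes were not read, as 3 of 12 had a point.

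**Figure D5:**
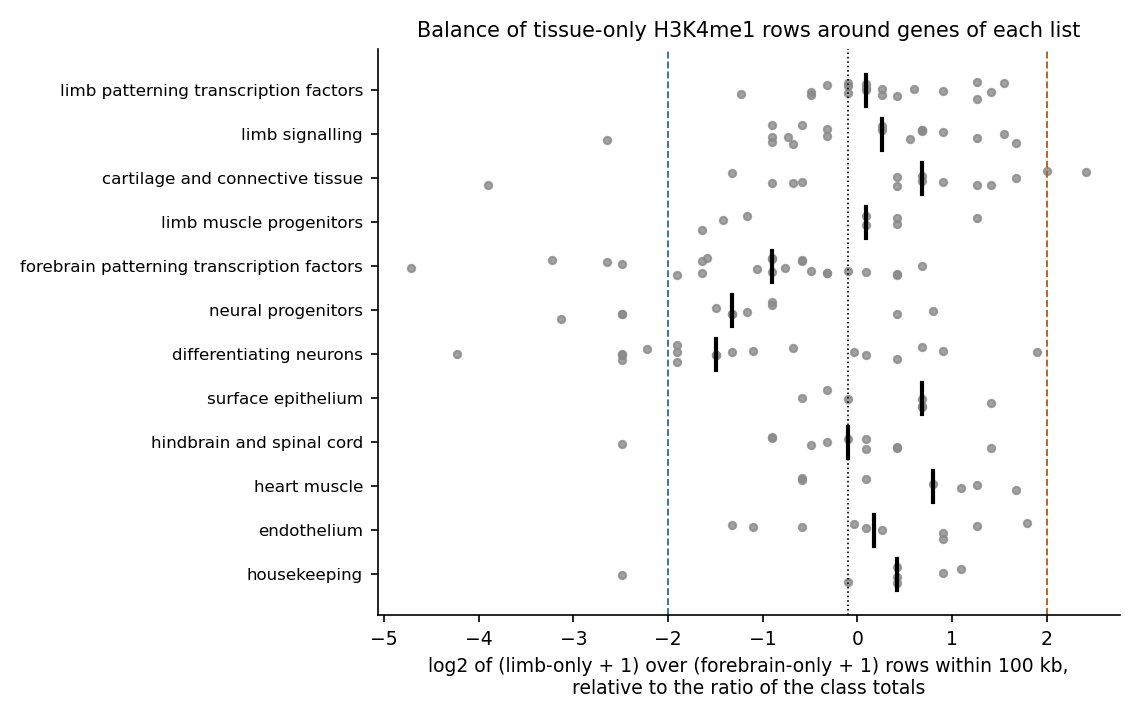
Balance of limb-only to forebrain-only rows (log2, with 1 added to each count and relative to the class totals) for each gene considered (points) of 12 lists, with the list median (bar); the dotted line is the median of all genes, -0.10, and dashed lines mark a 4-fold balance in favour of forebrain (left) and limb (right). The 3 neural and forebrain lists have medians of -0.90, -1.32 and -1.49, and the other lists lie between -0.10 and 0.80.

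The balance of a gene with few rows or an empty count depends on the 1 added to each count. With empty counts set to 3 rows and nothing added, the median over the 6843 genes with more than 3 rows in a tissue was -0.49, and the medians were 0.06 for limb patterning, -0.17 for limb signalling and -0.49 for cartilage genes, against -1.17 for forebrain patterning, -0.90 for neural progenitor and -1.17 for neuronal genes. Only empty counts were raised. At the same limb-only count, a gene with no forebrain-only row thus scored as less limb-sided than a gene with 1. On this measure the signs of the limb signalling and cartilage medians turned, but for that reason it cannot tell whether the signs hold. The forebrain patterning, progenitor and neuronal medians lay below that of all genes, but so did those of muscle precursor genes, -1.32, and housekeeping genes, -1.20.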

How the data were processed

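ChIP-seq region lists of mouse tissues were read as deposited. The submitters' processing notes name BWA and the mm9 build; the aligner's version, the peak caller and its thresholds are not given in the sources used here. The histone lists, deposited by the authors, hold start, end and rank of each region, and their track lines name an input. The rank's basis is not stated. In 16 other lists each row has a summit, a nearest gene, its distance and a conservation score, deposited by the authors with no scale stated. Fragments of 300 to 500 bp were sequenced, per the labels. Depth per sample is not given, so no floor or interval on reads was formed.

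A gene point is the position at the stated distance from at least 2 different summits; 18934 of 23432 transcript names (16001 symbols) were placed, 0 with conflicting positions. Overlap means 1 bp or more. Interval and counting code was tested on simulated data. No test across samples was made, since each group has 1 library. Gene names are those of the lists, and printed sequences come from RefSeq on GRCm38.p6, whose positions were not mixed with mm9.

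The members and gene lists were chosen with earlier results of these data known. Named genes are the 12 called genes per direction with most tissue-only rows of that tissue, at least 100 kb apart, the 3 members of each list with most limb-only and most forebrain-only rows, and the genes nearest to the 5 best-ranked tissue-only rows; the others named were chosen after their values were seen. Some genes that the rule names are not reported here. Python 3.11.15 with pandas 2.3.3, numpy 2.4.6, scipy 1.17.1 and matplotlib 3.10.9 was used. Alternatives covered list length, the overlap rule, H3K4me3 margins, input rows, territory size and gene points.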

Additional observations from a re-analysis of the deposited data

How the results depend on the processing

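No paired analysis was possible because each tissue and mark has 1 library. With lists of equal length, the limb-only share was 63.3% and the forebrain-only share 60.2%, median widths 1638 and 1259 bp, the limb-only median distance 35011 bp, the limb-only share over limb SMARCA4 0.717%, limb-rich genes 597 and the limb patterning median 0.93. With H3K4me3 rows extended by 2500 bp, median distances were 38060 bp for limb only and 44191.5 bp for forebrain only, the forebrain-only share over forebrain SMARCA4 was 1.62% and limb-rich genes numbered 43. Asking that the other tissue cover at least 50% of a row gave tissue-only shares of 79.9% in limb and 49.9% in forebrain and 125 limb-rich genes. Counting a row within 1000 bp as shared gave 71.8% and 37.6%, and 34 limb-rich and 1103 forebrain-rich genes. Territories of 50 kb gave 0 limb-rich and 467 forebrain-rich genes, and of 200 kb 356 limb-rich genes. Points agreed by 3 rows gave median distances of 39115 and 44199.5 bp for limb only and forebrain only. A minimum of 6 rows left 249 forebrain-rich genes. Merging rows within 1000 bp, leaving out input rows and assigning rows to the nearest gene moved no value past its interval or a count by 1.5 times. Entering genes without an exact point at a summit within 10 kb, an alternative chosen after seeing the data, placed 26 of 30 limb patterning factors and left both list medians at 0.10 and -0.90.

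Of 13 limb-rich and 22 forebrain-rich genes named in the text, equal length kept 12 and 17, the H3K4me3 margin 12 and 20, and 50 kb 0 and 16; none changed direction. Depth, which the lists do not give, limits every class: a row absent from the shorter forebrain list was not listed there, and its mark was not shown to be missing. No value has a replicate check.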

Other observations

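The conservation score that the authors deposited with SMARCA4 and SMARCC2 peaks was compared between the tissue-only classes in 3 lists. Heart SMARCA4 peaks over limb-only rows (1690 peaks) had a median score of 315 (306 to 320), and those over forebrain-only rows (371 peaks) 323 (306 to 339). Embryonic stem cell SMARCA4 peaks had a median of 289 (272 to 306) over 501 peaks in limb-only rows and 357.5 (326 to 390) over 276 peaks in forebrain-only rows, with scores of 0 in 34.5% and 23.2% of them. Face SMARCC2 peaks, from a further SWI/SNF subunit, had 306 over 1217 limb-only peaks and 318 over 322 forebrain-only peaks, with overlapping intervals (292 to 315 and 296 to 351). Over limb rows in both, the medians were 335 for heart, 346 for stem cell and 357.5 for face peaks. Over all peaks of each list they were 335, 292 and 375. The higher stem cell score was thus not particular to forebrain-only rows. Scores of 0 made up 35.1% of all stem cell peaks and 20.8% of those over limb rows in both.

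Read from the other side, 35.9% of the 5480 limb H3K27ac rows away from H3K4me3 lay over limb-only H3K4me1 rows, 3.08% over forebrain-only rows and 30.6% over rows in both. Of the 1100 forebrain SMARCA4 peaks away from H3K4me3, 12.3% lay over limb-only rows, 11.5% over forebrain-only rows and 55.8% over rows in both. Of the 605 midbrain SMARCA4 peaks, 9.26% lay over limb-only, 13.6% over forebrain-only and 53.4% over in-both rows.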
